A study of Mus musculus with 2 samples.

Results

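Immediate early genes were described in messenger RNA of mouse small-intestinal villi, purified before extraction, comparing a control library with 1 labelled as a double knockout of the Polycomb genes Ring1 (Ring1a) and Rnf2 (Ring1b), called the Ring dKO library here. The group was set by name as Fos, Fosb, Jun, Junb, Jund, Egr1, Atf3, Dusp1, Zfp36 and Socs3. Of these 10 genes, 9 were analysed, out of 20722 gene symbols in all, and Jund was not analysed here. Both libraries came from C57BL/6 mice that carried Rosa26-CreERT2, a tamoxifen-activated Cre recombinase expressed from the Rosa26 locus, and Cdkn2a-/-. The Ring dKO library was in addition Ring1a-/- and Ring1bf/f. Animals of both genotypes received 3 tamoxifen injections and were killed 6 days later. The Rosa26 promoter is active in nearly all cell types, so the design does not confine loss of Ring1b to the epithelium, and the control lacks Cdkn2a as well. The labels give neither the age of the mice nor how many contributed to a library.

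Immediate early genes are transcribed within minutes of a stimulus, without new protein synthesis, from promoters that are occupied or quickly bound by factors such as SRF with its ELK partners, CREB and the STATs. Growth factor receptors such as EGFR signal to them through Ras, Raf and the MAP kinases, and cytokine receptors through JAK and STAT3. Several products are transcription factors and others switch the signal off again: Dusp1 dephosphorylates MAP kinases, Zfp36 (tristetraprolin) destabilises mRNAs with AU-rich elements, and Socs3 inhibits JAK-STAT signalling. In the intestine these genes are known to respond to wounding, to cytokines such as interleukin 22 and to tissue handling. PRC1, the complex to which the Ring1 proteins belong, ubiquitinates histone H2A at silent developmental genes.

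With a single library (1) for each genotype, the differences carry no replicate check and were not tested. The control held 775827 reads recovered from the deposited values and the Ring dKO library 1058196. All intervals are exact at the 95% level and describe counting error alone. The targeted genes were no check of the labels, since counts over whole transcripts do not show a deleted exon: Ring1 had 10 reads in each library and Rnf2 59 in the control and 82 in the Ring dKO one. Xist had 80 reads in the control against 1 in the Ring dKO library, whereas the Y-linked Ddx3y had 0 and 131, so sex and genotype cannot be told apart. Of 20722 symbols, 6001 had a mean normalised read count of at least 20 and are called measured, and all 9 immediate early genes were among them. The median log2 ratio of Ring dKO over control was 0.51 over the measured genes. Under other scalings every ratio moves down together, by 0.30 on the log2 scale with total counts, by 0.52 with TMM (trimmed mean of M values) and by 0.69 with the upper quartile. The group is therefore described both at the deposited scaling and relative to that median. Folds of single genes are at the deposited scaling unless stated otherwise.

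At the deposited scaling the immediate early genes did not shift as one group. Egr1 and Fosb were higher in the Ring dKO library, Fos, Atf3 and Dusp1 had intervals that included a ratio of 1, and Jun, Junb, Zfp36 and Socs3 were lower. Socs3 alone was at least 2-fold lower, and 0 of 9 were at least 2-fold higher. Among all measured genes 4.18% were at least 2-fold lower and 26.2% at least 2-fold higher. In bulk villi, fewer cells that express a gene and less RNA per cell cannot be told apart.

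**Figure D1:**
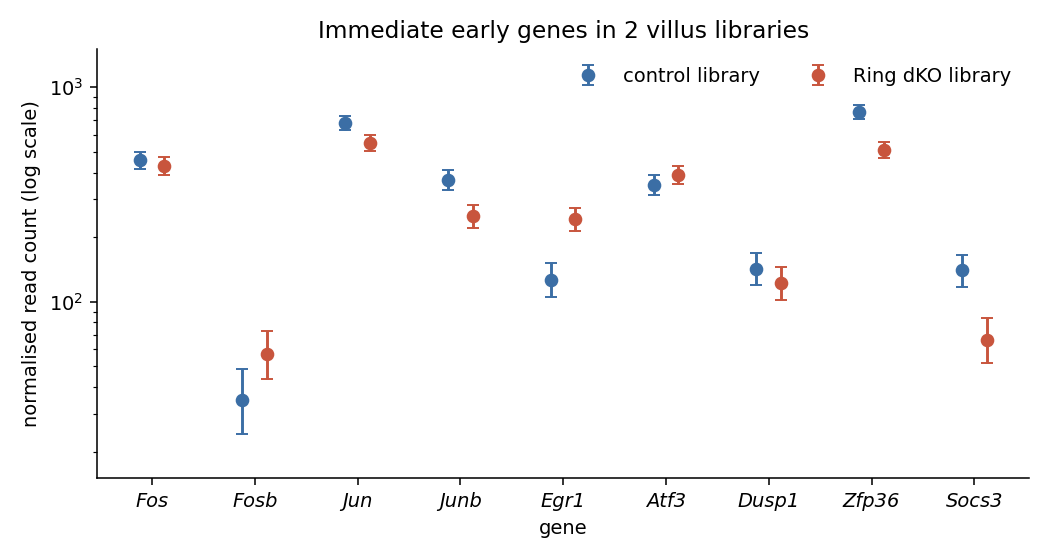
Normalised read count (log scale) of 9 immediate early genes in the control (blue) and Ring dKO (red) library, 1 library each, with 95% counting intervals. The points of Egr1 lie at 126 and 242 and those of Socs3 at 140 and 66.5, in opposite directions.

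The Fos and Jun proteins pair through leucine zippers to form AP-1, in which Fos proteins need a partner and Jun proteins can also pair with each other. Fos (NM_010234) had a normalised read count of 456 in the control against 430 in the Ring dKO library, a ratio of 0.943 (0.825 to 1.08). Its levels in both libraries overlapped within counting error. Fosb (NM_008036), the least abundant of the group, had 34.8 and 57.0 (32 and 59 reads), a ratio of 1.66 (1.06 to 2.64). Relative to the measured median the ratio of Fosb was 1.17 (0.748 to 1.86), an interval that included 1. Jun (NM_010591) had 683 in the control against 550 in the Ring dKO library, 1.24-fold lower (1.11 to 1.39). Junb (NM_008416), which is a weaker activator than Jun at many sites, had 369 and 251, 1.47-fold lower (1.25 to 1.73). Shares of reads inside a library do not depend on the scaling. Fos and Fosb made up 31.8% (29.4 to 34.2) of the reads of these 4 genes in the control and 37.8% (35.2 to 40.4) in the Ring dKO library. Counted with Fosl2, a Fos relative outside the group, the Fos genes took 55.3% (53.2 to 57.4) and 56.4% (54.1 to 58.6), which overlap. Within the Fos pair, Fosb took 6.90% (4.76 to 9.60) and 11.5% (8.91 to 14.6) of reads, intervals that overlap. Within the Jun pair, Junb took 35.0% (32.1 to 38.1) and 31.3% (28.1 to 34.5), which also overlap. Overlapping intervals do not show that shares were equal, and differences between shares were not tested.

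Egr1 and Atf3 are the other transcription factors of the group. Egr1 (NM_007913), a zinc finger factor of growth factor and stress signalling, had a normalised read count of 126 in the control against 242 in the Ring dKO library, 1.92-fold higher (1.54 to 2.41). It had the highest ratio of the 9 genes and was the only one whose interval lay above the median of measured genes, at percentile 70.7 of them. Atf3 (NM_007498), a CREB-related factor induced by stress, had 352 and 391, a ratio of 1.11 (0.960 to 1.29). Its interval included 1 and lay below the measured median. The direction of Atf3 followed the scaling: its log2 ratio of 0.15 became -0.14 with total counts, -0.36 with TMM and -0.54 with the upper quartile. Egr1 stayed above 0 in each of these, between 0.24 and 0.64.

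The 3 feedback inhibitors all had lower values in the Ring dKO library. Dusp1 (NM_013642) had a normalised read count of 142 in the control against 122 in the Ring dKO library, a ratio of 0.861 (0.670 to 1.11), and its levels overlapped. Zfp36 (NM_011756), the most abundant gene of the group in the control, had 769 and 508, 1.51-fold lower (1.35 to 1.70). Socs3 (NM_007707) had 140 and 66.5 (132 and 69 reads), 2.12-fold lower (1.57 to 2.88). Socs3 therefore passed the 2-fold mark, although its interval reached to less than 2-fold. Summed, the 3 inhibitors had 995 reads in the control against 731 in the Ring dKO library, 1.51-fold lower (1.37 to 1.66). Zfp36 supplied 729 and 534 of these reads, so the sum mostly repeats its value. The 6 transcription factor genes had 1912 and 2017 reads, a ratio of 0.951 (0.893 to 1.01). As a share of the reads of all 9 genes, which no scaling alters, the inhibitors took 34.2% (32.5 to 36.0) in the control and 26.6% (25.0 to 28.3) in the Ring dKO library. Dusp1 by itself held 4.61% (3.88 to 5.44) and 4.66% (3.90 to 5.51). Egr1 went from 4.09% (3.40 to 4.88) to 9.24% (8.19 to 10.4) of the reads of the 9 genes, Zfp36 from 25.1% (23.5 to 26.7) to 19.4% (18.0 to 21.0) and Socs3 from 4.54% (3.81 to 5.36) to 2.51% (1.96 to 3.17). Atf3 went from 11.5% (10.3 to 12.7) to 14.96% (13.6 to 16.3), Junb from 12.01% (10.8 to 13.2) to 9.57% (8.496 to 10.7) and Fosb from 1.10% (0.754 to 1.55) to 2.15% (1.64 to 2.76). The intervals of these 6 genes did not overlap, and those of Fos, Jun and Dusp1 did. Shares within a group are tied to each other, so gains by some genes lower the shares of the rest. No like count was made over all measured genes. At the deposited scaling the interval of the ratio lay wholly below 1 for 12.1% of them and wholly above it for 52.5%.

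**Figure D2:**
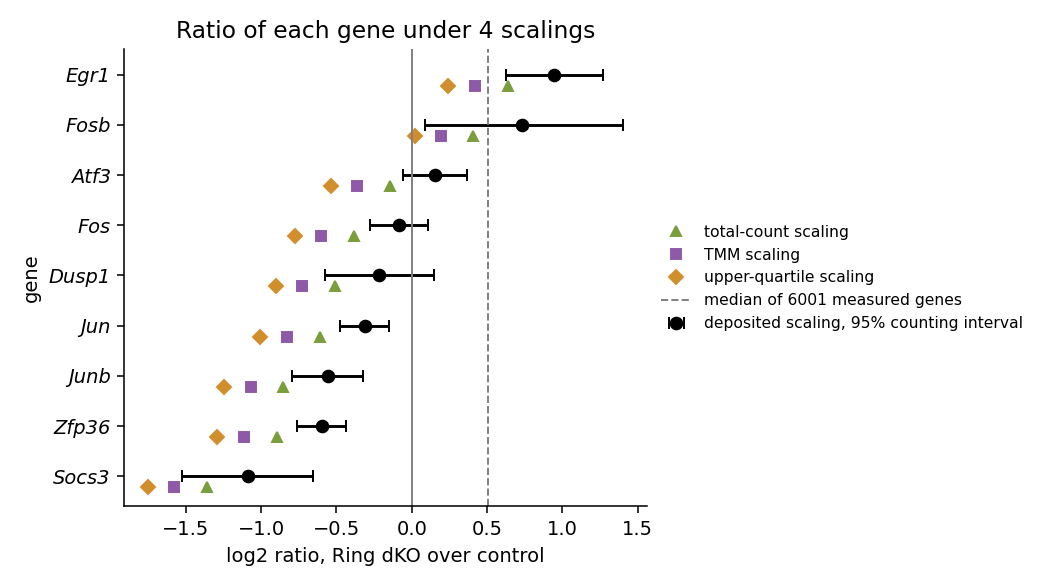
Log2 ratio of Ring dKO over control for each gene at the deposited scaling (black, with 95% counting intervals) and under total-count, TMM and upper-quartile scaling (coloured symbols). The dashed line is the median of the 6001 measured genes, at 0.51. The order of the genes is the same under every scaling, with Egr1 at the top and Socs3 at the bottom.

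Against the measured genes as a whole, most of the group stood low. The log2 ratio was below 0 for 6 of 9 genes, and for 24.6% of all measured genes. The median over the group was -0.21, which is 0.72 below the measured median, and 7 of 9 genes lay below that median, all but Egr1 and Fosb. The counting interval lay wholly below it for the same 7, and for 28.1% of all measured genes. At least 2-fold below the measured median were 3 genes, Socs3 (3.02-fold), Zfp36 (2.15-fold) and Junb (2.09-fold), beside 10.4% of all measured genes. Socs3 was at percentile 3.63 of the measured genes by ratio, Zfp36 at 8.68, Junb at 9.40, Jun at 14.7, Dusp1 at 17.1, Fos at 21.3, Atf3 at 31.2 and Fosb at 60.0. The interval lay wholly below a ratio of 1 for 4 genes (12.1% of measured genes) and wholly above it for 2 (52.5% of measured genes). All 9 together made up 0.375% (0.361 to 0.389) of the reads of the control and 0.260% (0.250 to 0.270) of those of the Ring dKO library. Means over both libraries ran from 45.9 for Fosb, at percentile 31.6 of the measured genes, to 638 for Zfp36, at percentile 97.1. Among the 2414 measured genes with a mean of at least 100 the median log2 ratio was 0.32, and 30.9% were below 0. The 2426 measured genes whose transcripts were as long as those of the group had a median of 0.54. In the authors' deposited table the unadjusted DESeq p-values of these genes ran from 0.431 for Socs3 to 0.950 for Fos, from a comparison of 1 library with 1 library.

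**Figure D3:**
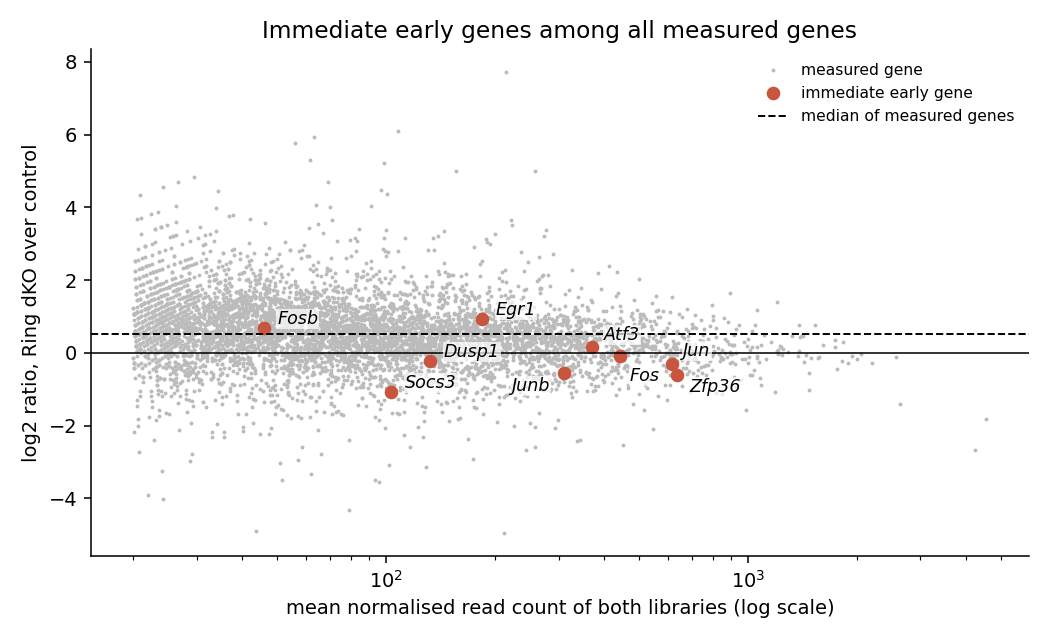
Log2 ratio of Ring dKO over control against the mean normalised read count (log scale) of 6001 measured genes (grey), with the 9 immediate early genes in red. The dashed line is the measured median at 0.51, and Egr1 and Fosb are the red points above it.

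Levels were compared between genes per length, as recovered reads divided by transcript length and by the depth of the library (RPKM). In the control, Zfp36 was highest at 337 (313 to 362), followed by Fos at 264, Jun at 262, Junb at 249 and Atf3 at 216, each of which overlapped its neighbour. Below a gap came Dusp1 at 86.8, Socs3 at 66.7 and Egr1 at 50.5, again overlapping in turn, and Fosb was last at 10.9 (7.46 to 15.4). In the Ring dKO library Fos (203), Atf3 (196), Zfp36 (181) and Jun (171) overlapped in turn, and Junb stood apart below them at 137 (121 to 155). Egr1 (79.1) and Dusp1 (60.8) overlapped, Socs3 was at 25.6 (19.9 to 32.3) and Fosb again last at 14.7 (11.2 to 19.0). Egr1 was thus the eighth of 9 genes in the control and the sixth in the Ring dKO library, and Socs3 the seventh and the eighth. The place of Zfp36 depends on its length. Its matched GENCODE transcript has 2790 bases, of which 1765 lie inside the RefSeq gene, and with the shorter length its level was 532 in the control against 286 in the Ring dKO library, the highest of the group in both. With the longest GENCODE transcript Egr1 was at 34.2 and 53.5.

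The promoters of 8 of the 9 genes (all but Egr1) were found in a RefSeq table of assembly GRCm38.p6, as windows from 250 bases before to 50 after the start site, 300 bases in all. The genes' promoters were rich in CpG dinucleotides, which mark the promoters that PRC1 complexes can bind. They held 15 to 31 CpGs each (median 23), against a median of 7 over 32851 promoters, and their GC content was 58.7% to 73.3% against a median of 52.7%. Those 32851 include promoters of genes that were not measured here. The measured genes alone were not compared, so CpG content was not shown to set the group apart from them. The windows were searched on both strands for sites of the upstream factors: the CArG box of SRF, the full CREB site TGACGTCA, its shorter form TGACGT (which lies inside the full site), the STAT motif TTCNNNGAA, the AP-1 site TGAGTCA, the EGR site GCGTGGGCG and the TATAAA box. Within the 8 windows, the CArG box was in Zfp36 alone (1.63% of all promoters hold it), TGACGTCA in Dusp1 alone (1.79%), and TGACGT in Fos, Dusp1 and Atf3 (7.51%). TTCNNNGAA was found in Socs3 and Zfp36 (8.30%). TATAAA was in Fos and Junb (13.6%), and TGAGTCA (5.20%) and GCGTGGGCG (0.612%) were in none of the 8 windows. A match is a run of letters, not a measured binding site, and a link between motifs and ratios was not tested. Sequence more than 250 bases before the start site was not searched, so a gene without a match can hold the site farther away. The 30 bases around 6 matches of the CArG box, the CREB sites and the STAT motif are shown, with the match in capitals, 5′ to 3′ on the gene's strand. The Atf3 match reads as the reverse complement ACGTCA.
Zfp36 CArG box, chr7:28379267-28379296, minus strand: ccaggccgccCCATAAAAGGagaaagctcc
Zfp36 STAT motif, chr7:28379226-28379255, minus strand: acagcctgacTTCTGCGAAccgacagtcgg
Socs3 STAT motif, chr11:117969501-117969530, minus strand: gaaaccagccTTCTTAGAAgggaggggggg
Dusp1 CREB site, chr17:26508597-26508626, minus strand: ggtagggcgggTGACGTCAccgcccggtca
Fos short CREB site, chr12:85473812-85473841, plus strand: agttccgcccagTGACGTaggaagtccatc
Atf3 short CREB site, chr1:191183324-191183353, minus strand: attaatagcattACGTCAgcctgggattgg

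Zfp36 protein recognises mRNAs by AU-rich elements in the 3′ untranslated region, so this end of the transcripts was searched as well. Matched GENCODE transcripts (GRCm38) gave a 3′ untranslated region for all 9. The pentamer ATTTA occurred in each of them, with a median of 3 copies (from 1 in Fosb to 4 in Fos, Jun, Dusp1 and Socs3), and in 65.8% of 5871 measured genes, with a median of 1 copy. The nonamer TTATTTATT, close to the preferred Zfp36 site, was present in Fos, Dusp1 and Zfp36 itself, 3 of 9, and in 6.69% of measured genes. Their ratios of 0.943, 0.861 and 0.660 lay among those of the 6 genes without it. A site from each is shown with the nonamer in capitals.
Fos, chr12:85477103-85477132, plus strand: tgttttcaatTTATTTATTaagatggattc
Dusp1, chr17:26506158-26506187, minus strand: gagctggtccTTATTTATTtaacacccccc
Zfp36, chr7:28376950-28376979, minus strand: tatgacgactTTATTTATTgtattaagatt

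Genes that work with the group were described from 9 further lists. The counts of each stand beside all measured genes, of which 26.2% were at least 2-fold higher and 4.18% lower. Some genes had a normalised read count below 20 in 1 library and passed the mean filter only through the other. Of those named, Dusp10, Rps6ka3, Crtc3, Gadd45b and Socs6 passed it through the Ring dKO library, and Dusp4 and Elk4 through the control. Among other MAP kinase phosphatases, of 5 measured, 3 were at least 2-fold lower and 1 higher, with a median log2 ratio of -1.08. That median depended on the filter: it was -0.10 with none, and -0.46 when means had to reach 100. Dusp6, a phosphatase of ERK and itself induced by ERK signalling, had 891 reads in the control against 466 in the Ring dKO library, 2.12-fold lower (1.89 to 2.38). Dusp4 (37 and 16 reads) was 2.57-fold lower (1.39 to 4.94) and Dusp5 (44 and 22) 2.22-fold (1.30 to 3.89). Dusp10, which acts on JNK and p38, went the other way at 11 and 54 reads, 4.43-fold higher (2.29 to 9.39). Dusp4, Dusp5 and Dusp6 each had a lower ratio than Dusp1, at 0.861 (0.670 to 1.11). The interval of Dusp6 lay clear of that of Dusp1, whereas those of Dusp4 and Dusp5 overlapped it.

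The EGF receptor list had a median of -0.42 over 7 measured genes, with 2 at least 2-fold lower and 0 higher, and all 7 lay below the measured median. Egfr itself had 233 reads in the control against 72 in the Ring dKO library, 3.59-fold lower (2.75 to 4.74). Its relative Erbb3 was 2.23-fold lower (1.79 to 2.79). Of the ligands, Areg (amphiregulin) had 105 and 62 reads, 1.88-fold lower (1.36 to 2.61), and Tgfa 56 and 46, with an interval that included 1. The ligand gene Hbegf went the other way at the deposited scaling, with 180 and 273 reads, 1.37-fold higher (1.13 to 1.66). So did the receptor gene Erbb2, with 243 and 350 reads, 1.30-fold higher (1.10 to 1.54). Downstream, 14 Ras, Raf and MAP kinase genes had a median of 0.31, with 2 higher and 0 lower. Among all measured genes the shares were 26.2% and 4.18%, and the median was 0.51. Of the 14 genes 10 lay below that median, and 0 passed 2-fold from it in either direction. The ERK-activated kinase gene Rps6ka3 had 12 and 36 reads, 2.70-fold higher (1.38 to 5.71). Map2k3 was 1.39-fold lower (1.19 to 1.62), and Mapk8, encoding JNK1, had an interval that included 1.

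Upstream transcription factors and coactivators had a median of -0.70 over 7 measured genes, of which 2 were at least 2-fold higher and 0 lower. Measured from the overall median instead, 0 were 2-fold above and 4 below. The 2 higher genes were Atf1 (41 and 98 reads), 2.15-fold (1.48 to 3.18), and the CREB coactivator Crtc3 (9 and 31), 3.10-fold (1.44 to 7.41). When means had to reach 100, 0 genes of this list were at least 2-fold higher. The acetyltransferase genes Ep300 (188 and 116 reads) and Crebbp (53 and 34) were 1.80-fold (1.42 to 2.29) and 1.73-fold (1.10 to 2.74) lower. Another CREB coactivator, Crtc2, was 1.66-fold lower (1.04 to 2.69) and the SRF partner Elk4 1.97-fold (1.07 to 3.73), on 32 and 18 reads. Other SOCS and JAK genes had a median of -0.19 over 8 measured genes, with 2 higher and 0 lower. Among all measured genes the shares were 26.2% and 4.18%. Relative to the measured median, 0 genes of this list were 2-fold above and 2 below. The 2 higher genes were Socs6 (16 and 46 reads), 2.59-fold (1.44 to 4.90), and Socs7 (39 and 96), 2.22-fold (1.51 to 3.31). Il6st, which encodes the gp130 receptor subunit through which interleukin 6 induces Socs3, had 46 and 27 reads, 1.89-fold lower (1.15 to 3.16). The receptor genes Il22ra1 (442 and 483 reads) and Il10rb (160 and 193) of the same list had intervals that included 1. A link of these receptor genes to Socs3 was not tested. Jak1 was 1.33-fold lower (1.09 to 1.62), Socs4 1.62-fold (1.11 to 2.39), and Cish, at 55 and 47 reads, had an interval that included 1.

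Other AP-1 and Maf genes had a median of -0.49 over 7 measured genes, with 1 higher and 1 lower. Fosl2, a Fos relative, had 770 reads in the control against 576 in the Ring dKO library, 1.48-fold lower (1.33 to 1.65). These were more reads than those of Fos, but the 2 genes were not compared per length. Mafg was 1.95-fold lower (1.25 to 3.09), and Maf had 69 and 441 reads, 5.76-fold higher (4.46 to 7.54). Further early response genes were spread widely, with a median of 0.20 over 23 measured genes and 3 higher and 1 lower. Plk3, a stress-induced kinase gene, was 3.15-fold lower (2.36 to 4.26). Gadd45a was 1.58-fold lower (1.27 to 1.98) while its relative Gadd45b, at 14 and 59 reads, was 3.80-fold higher (2.10 to 7.37), and the differentiation inhibitor Id2 was 3.81-fold higher (2.37 to 6.37).

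At the deposited scaling all 8 measured genes of AU-rich mRNA decay had a log2 ratio above 0, with a median of 0.96, and 3 were at least 2-fold higher and 0 lower, beside 75.4% and 26.2% of all measured genes above 0 and 2-fold higher. Relative to the measured median 0 of them passed 2-fold in either direction. The Zfp36 relatives Zfp36l1 (32 and 95 reads) and Zfp36l2 (101 and 234) were 2.68-fold (1.78 to 4.13) and 2.09-fold (1.65 to 2.66) higher, while Zfp36 was 1.51-fold lower. The deadenylase subunit genes Cnot3 and Cnot8 were 2.10-fold (1.24 to 3.69) and 2.01-fold (1.37 to 2.99) higher, although Cnot8 fell short of the 2-fold mark on the log2 measure with its pseudocount of 1. The integrated stress response, which can induce Atf3, had a median of 0.02 over 7 measured genes, of which 1 was at least 2-fold higher and 0 lower, whereas 0 lay 2-fold above the overall median and 3 below it. Ddit4 was 1.94-fold lower (1.40 to 2.71), the PERK gene Eif2ak3 1.82-fold (1.31 to 2.56) and Ppp1r15a 1.67-fold (1.34 to 2.09), and Trib3, at 20 and 56 reads, was 2.52-fold higher (1.49 to 4.44). Over the 9 lists together, 86 genes were measured. At the deposited scaling 15 of them (17.4%) were at least 2-fold higher and 7 (8.14%) lower, beside 26.2% and 4.18% of all measured genes. Counted from the overall median, 5 (5.81%) were 2-fold above and 21 (24.4%) below, beside 11.8% and 10.4%.

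**Figure D4:**
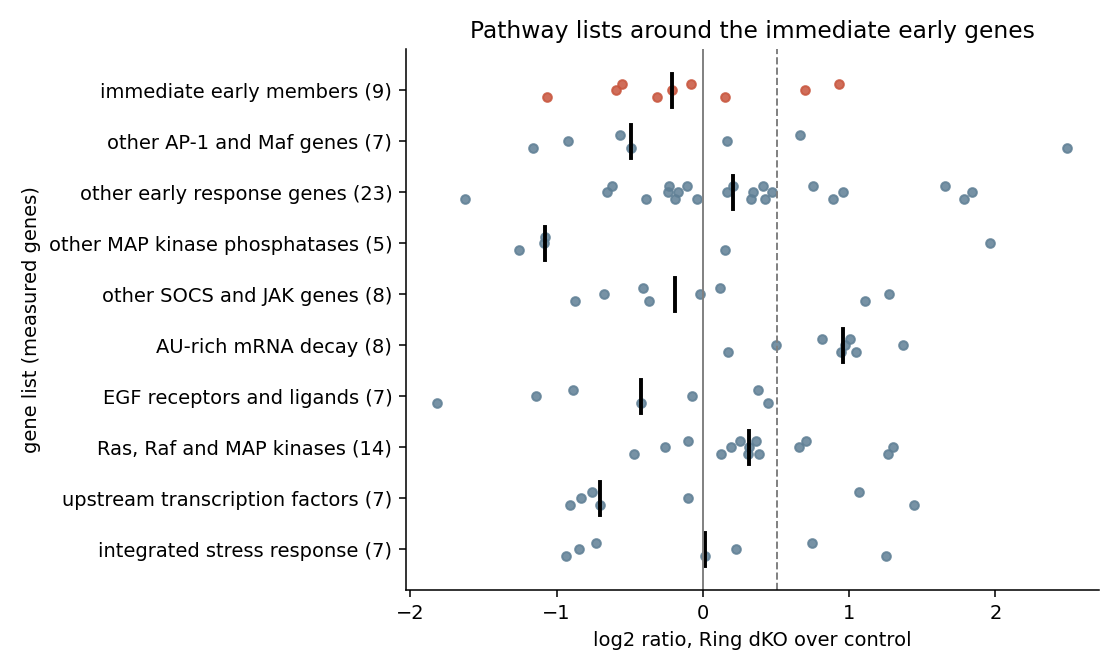
Log2 ratio of Ring dKO over control for each measured gene of the immediate early group (red) and of 9 related lists (blue), with the number of measured genes in parentheses. Black bars are list medians, and the dashed line is the measured median at 0.51. At this filter MAP kinase phosphatases have the lowest median (-1.08) and mRNA decay genes the highest (0.96).

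Markers of cell types stand beside all of these values, and several of their sums differed between the libraries. The 10 enterocyte markers had 8612 reads in the control against 11751 in the Ring dKO library, a ratio of 1.23 (1.20 to 1.26). Over the 9 measured ones the median log2 ratio was 0.42, and 6 lay below the median of all measured genes, at 0.51. Sis (37 and 357) and Lct (184 and 847) were higher and Mttp (24 and 10) was lower. Apoa1 and Apoa4 had ratios of 0.906 and 0.933. Fibroblast and smooth muscle markers, 9 of 10 of them analysed, had 54 and 348 reads, 5.81-fold higher (4.35 to 7.89), with Acta2 at 3 and 72 and Dcn at 0 in both. Immune markers (9 of 11) had 77 and 128 reads with Ptprc at 0 in both, and endothelial markers (6 of 7) 53 and 49, a sum in which Tie1 had 48 and 5 while Lyve1 had 1 and 19, Plvap 3 and 13 and Vwf 0 and 10. Crypt and dividing cell markers had 23 and 112 reads, 4.39-fold higher (2.78 to 7.21), with Olfm4 at 0 and 13. All of these cell types can express immediate early genes, and their part in the results was not tested.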

How the data were processed

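RNA was sequenced from 1 villus library per genotype, made with a TruSeq RNA v2 kit per the labels. TopHat, DESeq and mm9 are named in the submitters' processing notes, but no counting tool: that step is not given in the sources used here. In the table, the deposited signal is a normalised read count (base mean, per the file headers) for 22040 RefSeq transcripts. All values (100%) were whole multiples of the smallest in their column, within a relative tolerance of 0.001. Reads were recovered as multiples minus 1, on the inference that 1 read had been added to each count. The deposited fold ratio and log2 columns are quotients of the signal columns, and the deposited p-value column is unadjusted.

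The row with the highest mean stood for a symbol, and each of the 9 genes had 1 row. The measure was log2((dKO + 1)/(control + 1)). A mean of at least 20 made a gene measured, and calls were by size (2-fold) with no test. Folds in the text are read ratios divided by the size factor ratio (1.11), with 95% Clopper-Pearson intervals, and per-length intervals are exact Poisson. Lengths and 3′ regions came from GENCODE M21, matched by RefSeq accession. Named were all members and, per list, up to 4 measured genes farthest from the measured median. Other markers, Atf1, Crtc3, Socs6, Socs7, Erbb2, Hbegf, Il22ra1 and Il10rb were named after their values were seen. Fosl2 was likewise added to a share after its values were seen. Some genes under this rule are not reported here. The members and lists were chosen with earlier results of these data known. Of 204 listed genes 186 were analysed. Functions were tested on simulated data. Tools were Python 3.11.15, pandas 2.3.3, numpy 2.4.6, scipy 1.17.1, matplotlib 3.10.9, and edgeR 4.0.16 in R 4.3.3 for TMM and upper-quartile scaling. Other settings were total counts, a pseudocount of 5, other filters, summed rows, removal of the added read and an interval-based size rule.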

Additional observations from a re-analysis of the deposited data

How the results depend on the processing

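Leaving out replicates was not possible with 1 library per genotype. No paired analysis was possible because a genotype has only 1 library and nothing was tested. Genes of the group at least 2-fold lower numbered 1, but 3 with TMM and 3 with the median of measured genes set to 0, 4 with the upper quartile, and 0 when the counting interval had to lie wholly beyond 2-fold; the number at least 2-fold higher was 0 under all settings run. The group median of -0.21 became -0.73 with TMM, -0.72 with the median set to 0 and -0.90 with the upper quartile. Total counts, a pseudocount of 5, summed rows, the added read taken off and both other filters left it within the counting interval of its middle gene. Atf3 was the only gene of the group whose log2 ratio changed sign, with total counts, TMM, the upper quartile and the median set to 0 (-0.35).

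For the 9 related lists, genes at least 2-fold higher and lower numbered 15 and 7, but 5 and 22 under TMM, 4 and 27 under upper-quartile scaling, 8 and 16 under total counts, 5 and 21 once the median was 0, and 5 and 2 by the interval rule. At a mean of at least 100, 3 were higher. The per-length level of Zfp36 inside the RefSeq gene bounds was chosen after seeing the data. Depth limits Fosb most, at 32 reads in the control.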
